A study of Mus musculus with 5 samples.

Results

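Glycolysis and pyruvate entry, the step from pyruvate to acetyl-CoA, are described here through 34 genes. They encode the sugar and lactate transporters, the enzymes from hexokinase to lactate dehydrogenase, the pyruvate dehydrogenase complex with its kinases, and the hypoxia factor HIF-1α. The genes were taken by symbol from a table of 35976 gene rows, in which all 34 had a row. They were measured in haematopoietic stem cells (HSCs) from the bone marrow of C57BL/6 mice, in 3 libraries labelled Ythdf3-/- and 2 libraries labelled WT. Each library held 30 cells sorted as Lineage- Sca-1+ c-kit+ CD34- CD150+ and was made with Smart-seq2, which amplifies full-length cDNA from few cells. YTHDF3 is a cytoplasmic protein that binds N6-methyladenosine in mRNA, and the study set HSCs without it beside WT cells. The labels give no age, sex or description of the knockout allele.

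The targeted gene did not follow the labels, as replicates 2 and 3 labelled Ythdf3-/- held more of its counts than both libraries labelled WT. For Ythdf3 itself, replicates 1, 2 and 3 labelled Ythdf3-/- held 2, 339 and 366 counts, against 20 and 29 counts for replicates 1 and 2 labelled WT. The study's own text counts 2 knockout and 3 WT samples from 5 mice, while the labels give 3 and 2. Every direction below is therefore a difference between libraries labelled Ythdf3-/- and libraries labelled WT, and says no more than that. Libraries held 6357862 to 9076806 counts under the label Ythdf3-/- and 16650134 and 8968162 counts under the label WT. The 15 stem cell markers (Procr, Hlf, Mecom and others) summed to 2830 to 4583 CPM (a gene's counts scaled to 1000000 counts of its library) under the label Ythdf3-/- and to 3824 and 2288 CPM under the label WT. Genes of other cells differed between single libraries. The 14 erythroid genes summed to 37849 CPM in replicate 1 labelled Ythdf3-/- and to 1974 to 3355 CPM in the other libraries. The 15 mitosis genes summed to 42.6 to 207 CPM under the label Ythdf3-/-, against 106 and 864 CPM under the label WT. For 12 B cell genes the sums were 2146, 639 and 601 CPM under the label Ythdf3-/- and 1671 and 98.2 CPM under the label WT.

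Glycolysis splits glucose into pyruvate and yields ATP without oxygen. Lactate dehydrogenase then reduces pyruvate to lactate, or the pyruvate dehydrogenase (PDH) complex turns it into acetyl-CoA for the TCA cycle, unless PDH kinases (PDKs) switch the complex off. Quiescent HSCs of the marrow are known for a high use of glycolysis, for stabilised HIF-1α and for PDKs that keep pyruvate from becoming acetyl-CoA. HIF-1α binds the core ACGTG or GCGTG in DNA and activates many glycolytic genes.

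The glycolytic chain was abundant and present in every library, and no gene of the pathway passed the test between the labels. The 34 genes together took 0.863%, 0.840% and 0.855% of all counts in the libraries labelled Ythdf3-/-, against 0.804% and 0.517% in the libraries labelled WT. WT replicate 2 stood below the other 4 libraries. Of the 34 genes, 30 passed the filter on low counts. None of the 30 had an adjusted p under 0.05 (edgeR quasi-likelihood test with Benjamini-Hochberg adjustment over all genes, smallest adjusted p = 0.964 for Eno1), as none of all 11146 genes tested did (0.00%). At an unadjusted p under 0.05, 1 of the 30 genes stood, Eno1, against 541 of all genes (4.85%). DESeq2, run as an alternative, called 594 of 13469 genes (4.41%) and 0 of the 32 genes of the pathway to which it gave an adjusted p, the smallest of them 0.267 for Eno1. In the edgeR fit 19 of the 30 genes were estimated above 0 and 11 below, with a median log2 fold change of 0.33 (quartiles -0.21 and 0.85). Over all genes tested the median was -0.06, with quartiles of -0.84 and 0.78.

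In 6 of the 30 genes the libraries of the labels did not overlap. In 4 of them, Eno1, Aldoa, Pgam1 and Pfkp, the libraries labelled Ythdf3-/- were the higher ones (9.74% of all genes tested), and in 2, Pdha1 and Slc16a1, the lower ones (11.0% of all genes). The share of the pathway, 20.0%, was close to the 20.7% of all genes, so the count is no result about the pathway. With TMM-scaled CPM the count stayed at 6, but Aldoa overlapped and Pdhb did not, with 3 genes in each direction. On that scale 8.87% of all genes tested lay higher and 12.1% lower without overlap.

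**Figure D1:**
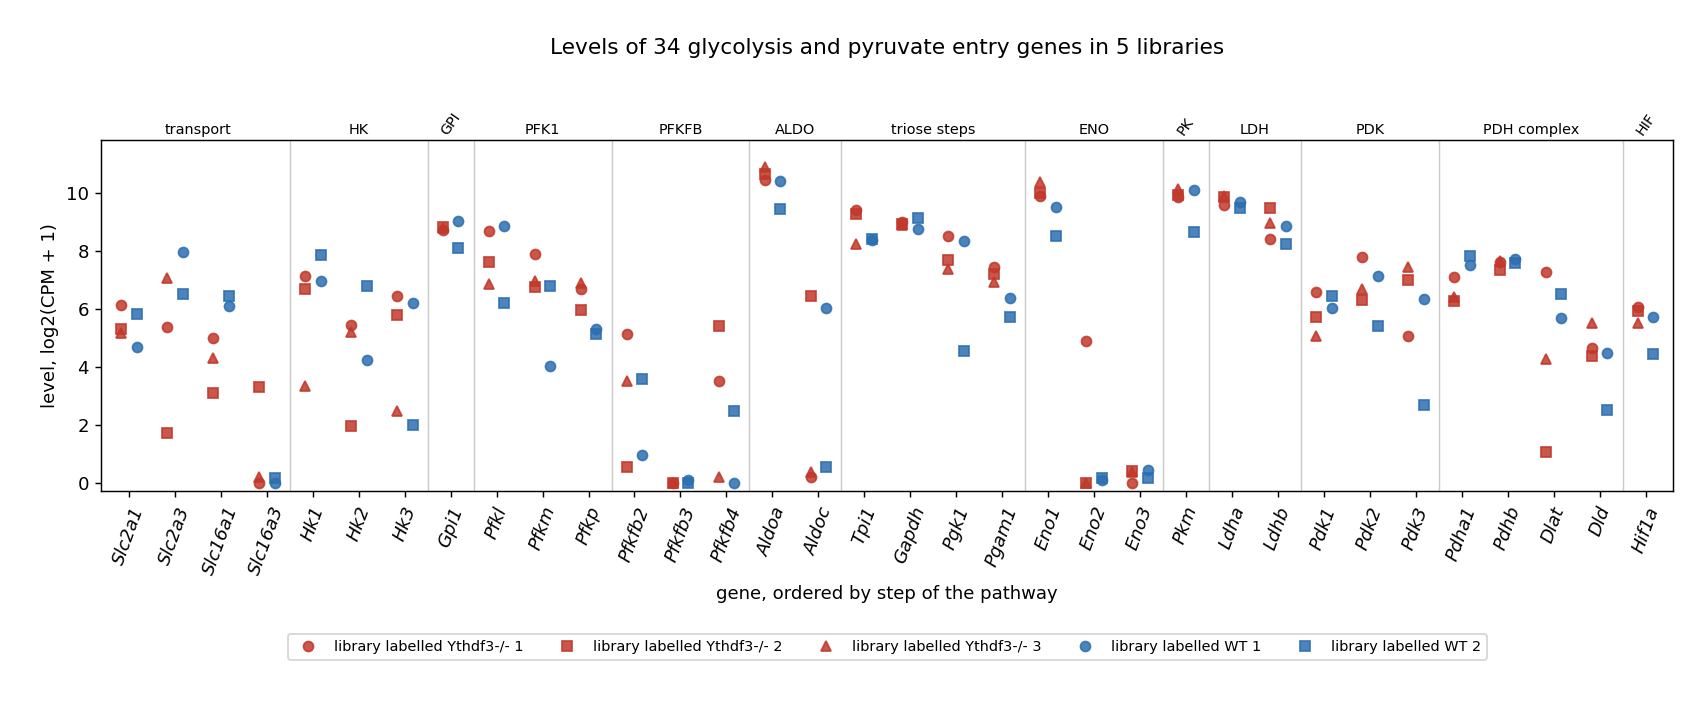
Level of each of the 34 genes as log2(CPM + 1) on the vertical axis, ordered by step of the pathway along the horizontal axis, with 1 point per library (red, label Ythdf3-/-; blue, label WT). Aldoa, Eno1, Pkm and Ldha lie high in every library, while Slc16a3, Pfkfb3, Eno2 and Eno3 lie near 0 in at least 4 of the 5 libraries.

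Eno1 encodes the main enolase of most tissues, which turns 2-phosphoglycerate into phosphoenolpyruvate. It stood at 943, 1011 and 1319 CPM in the libraries labelled Ythdf3-/- and at 719 and 359.7 CPM in those labelled WT, or 1091 ± 201 (SD, n = 3) and 539 ± 254 CPM (SD, n = 2). The libraries labelled WT lay further from each other than WT replicate 1 lay from the lowest library labelled Ythdf3-/-. The log2 fold change was 0.94 (SE 0.36, unadjusted p = 0.0311, edgeR) with all libraries and 0.57 without WT replicate 2. The next enzyme upstream, phosphoglycerate mutase, is encoded by Pgam1. Its levels were 173, 147 and 121 CPM under the label Ythdf3-/- and 81.7 and 51.3 CPM under the label WT, a log2 fold change of 1.06 (SE 0.61, unadjusted p = 0.118).

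Aldoa encodes aldolase A, which splits fructose-1,6-bisphosphate. It was the most abundant gene of the pathway, with 1388, 1605 and 1889.6 CPM in the libraries labelled Ythdf3-/-, against 1366.5 and 696 CPM in those labelled WT. The lowest library labelled Ythdf3-/- and the higher one labelled WT were almost level, and with TMM-scaled CPM they changed places (1368 and 1396 CPM). The log2 fold change was 0.58 (SE 0.33, unadjusted p = 0.113) and 0.22 without WT replicate 2. Pfkp encodes the platelet-type phosphofructokinase and had 101, 60.9 and 116 CPM under the label Ythdf3-/- and 38.4 and 34.2 CPM under the label WT. Its log2 fold change was 1.26 (SE 0.84, unadjusted p = 0.172, edgeR). With any 1 library left out it ranged over 1.08 to 1.49, where a gene without overlap can hardly change sign.

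Pdha1, the X-linked gene of the catalytic E1α subunit of the PDH complex, lay lower under the label Ythdf3-/-, with 137, 75.7 and 83.7 CPM, against 179.6 and 226 CPM under the label WT. The means were 98.7 ± 33.2 (SD, n = 3) and 203 ± 33.0 CPM (SD, n = 2), and the log2 fold change was -1.13 (SE 0.53, unadjusted p = 0.0636). Slc16a1 encodes MCT1, a carrier of lactate and pyruvate across the plasma membrane. It had 30.5, 7.49 and 18.8 CPM in the libraries labelled Ythdf3-/-, against 66.5 and 86.3 CPM in those labelled WT, a log2 fold change of -2.11 (SE 1.22, unadjusted p = 0.122). With any 1 library left out the log2 fold change ranged over -1.41 to -0.90 for Pdha1 and -2.60 to -1.73 for Slc16a1. Genes whose libraries do not overlap can hardly change sign in such fits, so the kept sign adds no support. In bulk libraries of 30 cells, fewer cells that express a gene and less RNA of it per cell cannot be told apart.

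**Figure D2:**
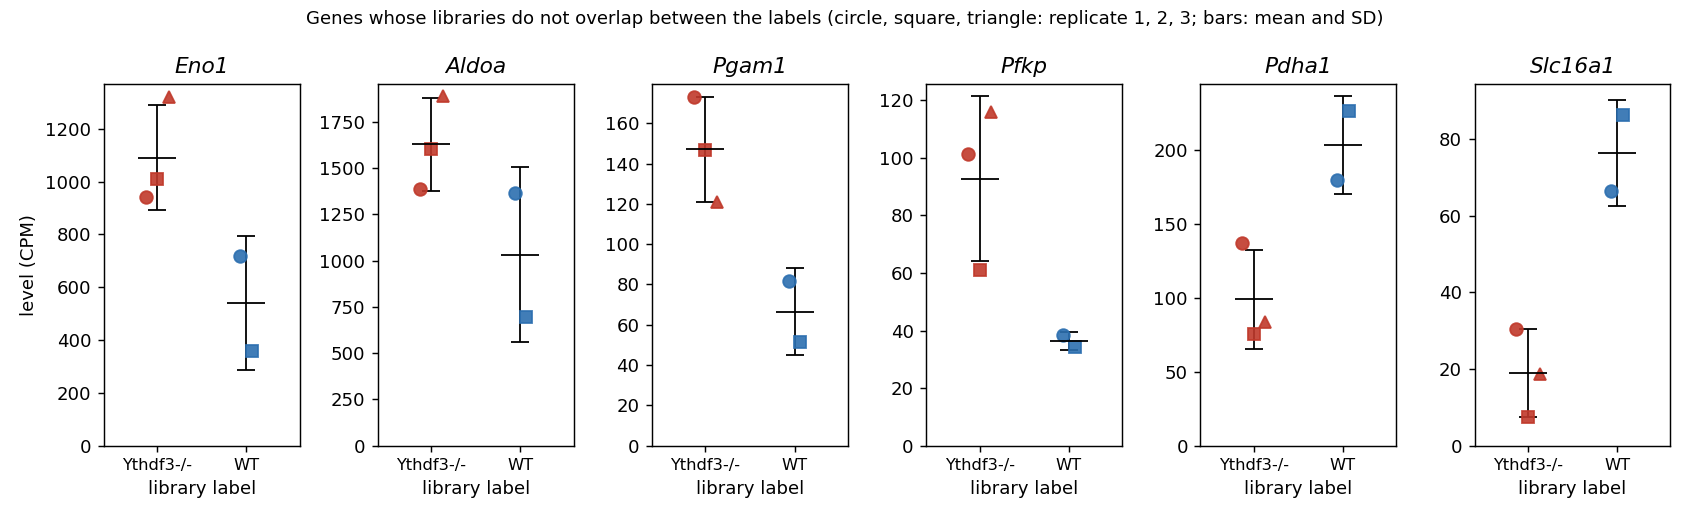
Level in CPM of the 6 genes whose libraries did not overlap between the labels, with 1 panel per gene, the label Ythdf3-/- left of the label WT, points for libraries and bars for mean and SD. Eno1, Aldoa, Pgam1 and Pfkp lie higher and Pdha1 and Slc16a1 lower under the label Ythdf3-/-, and the Aldoa libraries at 1388 and 1366.5 CPM nearly touch.

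The stretch of 250 bases before the transcription start is shown for the 2 genes of each direction with the smallest p and for Ldha, the window richest in ACGTG among the pathway's, because HIF-1 binding cores lie in many promoters of this pathway. The sequences are from RefSeq annotation of GRCm38.p6, written 5′ to 3′ on the gene's strand, and capitals mark ACGTG or GCGTG read on either strand (CACGT and CACGC are the same cores on the other strand). They lie at chr4:150236458-150236707 (+) for Eno1, chr7:126799255-126799504 (-) for Aldoa, chrX:160138431-160138680 (-) for Pdha1, chr3:104638414-104638663 (+) for Slc16a1 and chr7:46845554-46845803 (+) for Ldha, in windows without annotated exon bases.
Eno1: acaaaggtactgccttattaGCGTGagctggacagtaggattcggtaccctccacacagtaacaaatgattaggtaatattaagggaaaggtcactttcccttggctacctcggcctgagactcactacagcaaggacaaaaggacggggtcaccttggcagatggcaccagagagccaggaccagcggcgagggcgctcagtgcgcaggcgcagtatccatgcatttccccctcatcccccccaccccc
Aldoa: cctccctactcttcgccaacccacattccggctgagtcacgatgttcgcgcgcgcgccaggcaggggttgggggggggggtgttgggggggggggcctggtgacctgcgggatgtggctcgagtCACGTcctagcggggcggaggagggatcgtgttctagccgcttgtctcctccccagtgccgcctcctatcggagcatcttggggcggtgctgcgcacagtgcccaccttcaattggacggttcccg
Pdha1: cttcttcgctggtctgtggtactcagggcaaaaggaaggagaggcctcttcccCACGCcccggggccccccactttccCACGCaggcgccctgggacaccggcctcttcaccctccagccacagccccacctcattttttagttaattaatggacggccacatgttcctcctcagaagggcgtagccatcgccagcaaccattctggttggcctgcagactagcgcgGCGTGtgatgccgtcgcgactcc
Slc16a1: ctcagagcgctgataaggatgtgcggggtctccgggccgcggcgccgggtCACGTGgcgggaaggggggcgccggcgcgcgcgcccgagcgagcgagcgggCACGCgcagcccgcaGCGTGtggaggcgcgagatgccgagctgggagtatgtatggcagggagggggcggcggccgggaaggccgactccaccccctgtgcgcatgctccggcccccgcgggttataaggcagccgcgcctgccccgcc
Ldha: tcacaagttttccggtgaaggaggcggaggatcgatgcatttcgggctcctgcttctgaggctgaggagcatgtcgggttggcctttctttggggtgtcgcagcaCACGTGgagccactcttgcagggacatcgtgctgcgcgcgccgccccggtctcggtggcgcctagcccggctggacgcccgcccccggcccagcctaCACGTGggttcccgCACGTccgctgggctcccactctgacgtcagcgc
The Ldha window shown held 3 marked stretches, of which 2 were the palindrome CACGTG, which contains ACGTG on both strands and is also the E-box bound by MYC. The other Ldha window held 0 ACGTG and 1 GCGTG. The start of the window shown was found in 0 GENCODE transcripts of Ldha, that of the other in 1. The Slc16a1 and Pdha1 windows held 3 marked stretches each, and the Eno1 and Aldoa windows shown 1 each, while 2 further Eno1 windows, which overlap each other and lie almost wholly in annotated exons, held 2 each. Of the further Aldoa windows, 1 overlaps the window shown and held 1 stretch, and the other held 0. RefSeq gave 49 such windows for 33 of the 34 genes (none for Slc2a3). ACGTG was in 42.9% of them, against 22.0% of 10758 promoter windows of all genes tested and 16.6% of all 32851 windows. For GCGTG the shares were 51.0%, against 44.3% and 28.2%, and for CACGTG 14.3%, against 8.4% and 6.02%. The median GC content of the pathway's windows was 60.4%, close to the 59.6% of all genes tested. A match in these letters is no binding site, and windows of 1 gene overlap.

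Glucose enters through GLUT1 (Slc2a1) and the high-affinity GLUT3 (Slc2a3). Slc2a1 had 68.3, 37.9 and 34.9 CPM in the libraries labelled Ythdf3-/-, against 24.7 and 55.5 CPM in those labelled WT, which overlap. Slc2a3 had 40.6, 2.31 and 132 CPM under the label Ythdf3-/- and 248 and 89.7 CPM under the label WT, and here too the ranges overlapped (log2 fold change -1.63, SE 1.25, unadjusted p = 0.230). Per kilobase of transcript, Slc2a1 made up 67.1%, 95.2% and 24.3% of the pair's counts under the label Ythdf3-/- and 10.8% and 42.9% under the label WT. The leading glucose transporter was thus Slc2a1 in 2 libraries and Slc2a3 in 3. Slc16a3, the gene of the lactate exporter MCT4, drew 0, 81 and 1 counts under the label Ythdf3-/-, against 0 and 1 counts under the label WT. In replicate 2 labelled Ythdf3-/- it took 54.4% of the counts of both carriers (95% Wilson interval 46.4 to 62.2%, counting error only), while Slc16a1 supplied at least 99.2% in each other library.

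Hexokinases phosphorylate glucose on entry. Hk1, the isozyme with the highest mean, had 137, 100.6 and 8.98 CPM in the libraries labelled Ythdf3-/-, against 124 and 228 CPM in those labelled WT (log2 fold change -1.18, SE 0.97, unadjusted p = 0.259). Replicate 3 labelled Ythdf3-/- stood far below the other 4 libraries, and there Hk2 led with 72.2% of the hexokinase counts (95% Wilson interval 67.2 to 76.7%, counting error only). Per kilobase of transcript the share of Hk2 in that library was 63.0%. Hk2, the inducible isozyme, ranged over 2.86 to 42.0 CPM under the label Ythdf3-/- and had 17.7 and 109 CPM under the label WT. Hk3, an isozyme of myeloid cells, ranged over 4.56 to 84.8 CPM under the label Ythdf3-/- and had 71.4 and 3.01 CPM under the label WT. Gpi1, which turns glucose-6-phosphate into fructose-6-phosphate, was steadier, with 418, 452 and 434 CPM under the label Ythdf3-/- and 517 and 274 CPM under the label WT (log2 fold change 0.06, SE 0.37, unadjusted p = 0.878).

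Phosphofructokinase, the committing step, is a tetramer of liver-type, muscle-type and platelet-type subunits. Pfkl had 408, 195 and 115 CPM in the libraries labelled Ythdf3-/-, against 456 and 73.0 CPM in those labelled WT (log2 fold change -0.21, SE 0.78, unadjusted p = 0.798). Pfkm had 234, 106 and 122 CPM under the label Ythdf3-/- and 15.4 and 109 CPM under the label WT. Per kilobase, Pfkm kept a share of 35.6 to 41.7% of the 3 subunits under the label Ythdf3-/-, while its shares in the 2 libraries labelled WT were 3.91% and 57.5%. Pfkl led in 3 libraries and Pfkm in 2, and Pfkp led in none, with 11.4 to 27.7% under the label Ythdf3-/- and 6.77% and 12.6% under the label WT. The bifunctional PFKFB enzymes, which set the level of the activator fructose-2,6-bisphosphate, were scarce. Pfkfb2 had 217, 4 and 72 counts under the label Ythdf3-/- and 16 and 97 under the label WT (log2 fold change 1.22, SE 2.57, unadjusted p = 0.648). Pfkfb4 had 66, 372 and 1 counts under the label Ythdf3-/- and 0 and 41 under the label WT. Pfkfb3 had 1 count in all, in WT replicate 1, and a count of 0 allows up to 3 counts, or 0.331 to 0.472 CPM in the libraries labelled Ythdf3-/- and 0.335 CPM in WT replicate 2.

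Aldolase and enolase counts each came mostly from 1 gene in every library. Aldoa supplied at least 97.2% of the counts per kilobase of the 2 aldolase genes listed. Eno1 supplied at least 97.9% of those of the 3 enolase genes listed, which leave out Eno1b, a near-identical copy of Eno1. The minor isozymes were uneven or near 0. Aldoc, the brain-type aldolase, had 781 counts in replicate 2 labelled Ythdf3-/- and 1060 counts in WT replicate 1, but 1 and 2 counts in the other libraries labelled Ythdf3-/- and 4 counts in WT replicate 2. Eno2, the neuronal enolase, had 181 counts in replicate 1 labelled Ythdf3-/-, 0 in the other libraries with that label and 1 in each library labelled WT. Eno3, the muscle enolase, had 0, 3 and 2 counts under the label Ythdf3-/- and 6 and 1 counts under the label WT.

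**Figure D3:**
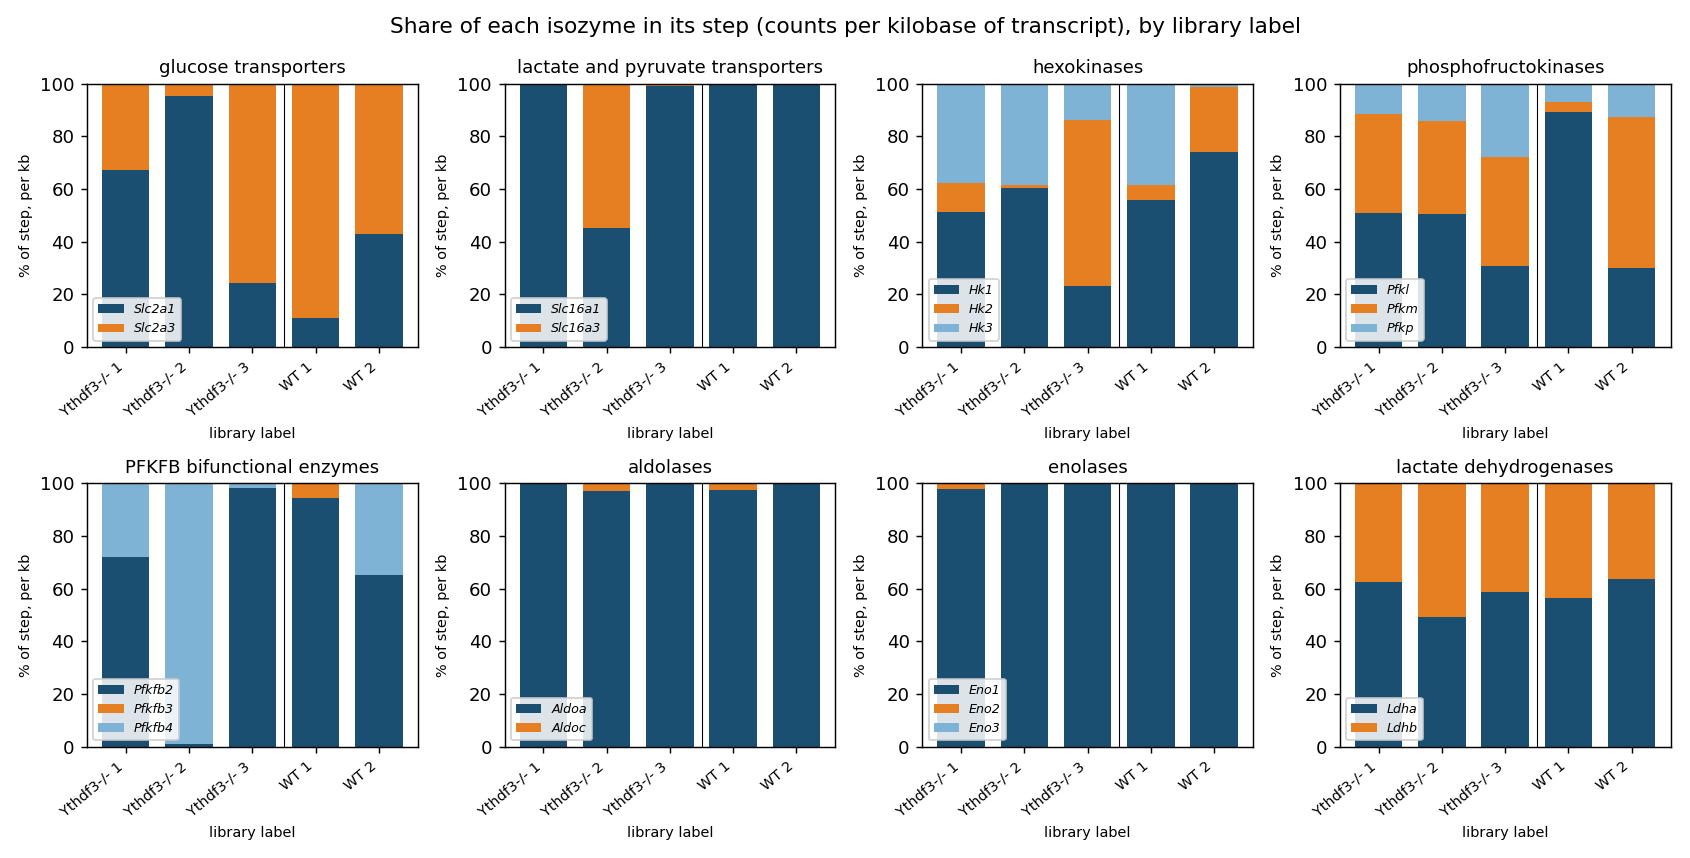
Percentage of each isozyme or carrier among the counts per kilobase of its step, with 1 stacked bar per library, the label Ythdf3-/- left of the label WT. Aldoa and Eno1 fill at least 97.2% and 97.9% of their bars in all 5 libraries, whereas the leading glucose transporter, hexokinase, phosphofructokinase and PFKFB enzyme differ between libraries of 1 label.

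Between aldolase and enolase the libraries of the labels overlapped for Tpi1, Gapdh and Pgk1, and did not for Pgam1. Tpi1, which interconverts the triose phosphates, had 675, 608 and 298 CPM in the libraries labelled Ythdf3-/-, against 326 and 334 CPM in those labelled WT (log2 fold change 0.59, SE 0.43, unadjusted p = 0.204). Gapdh, the dehydrogenase that follows, had 502, 488 and 467 CPM under the label Ythdf3-/- and 423 and 554 CPM under the label WT. It was among the most even genes of the pathway, with a log2 fold change of -0.10 (SE 0.32, unadjusted p = 0.754). Pgk1, an X-linked gene whose enzyme makes the first ATP of the chain, had 361, 202 and 163 CPM under the label Ythdf3-/- and 319.9 and 22.5 CPM under the label WT. The low library was again WT replicate 2, and the log2 fold change of 0.44 (SE 0.91) became -0.44 without it and 3.30 without WT replicate 1. Set against Gapdh of the same library, Eno1 stood at 1.88, 2.07 and 2.82 under the label Ythdf3-/- and at 1.70 and 0.650 under the label WT. The ratio of Pgam1 to Gapdh was 0.345, 0.301 and 0.259 under the label Ythdf3-/-, against 0.193 and 0.0926 under the label WT. Both ratios kept the labels apart, but that of Aldoa to Gapdh did not, with 2.77, 3.29 and 4.04 under the label Ythdf3-/- and 3.23 and 1.26 under the label WT. Eno1 and Pgam1 already lay apart in CPM and Gapdh was even, so the separation of their ratios largely repeats that. No share of all genes was computed for such ratios, and none of the ratios was tested.

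Pkm encodes pyruvate kinase M, which makes pyruvate and the last ATP of the chain. It had 931, 966 and 1126 CPM in the libraries labelled Ythdf3-/-, against 1082 and 401 CPM in those labelled WT (log2 fold change 0.37, SE 0.40, unadjusted p = 0.390). Without WT replicate 2 the sign turned to -0.14. The counts are per gene, so the M1 and M2 forms of the transcript were not analysed here. Ldha, the muscle-type lactate dehydrogenase, had 765, 932 and 943 CPM under the label Ythdf3-/- and 815 and 714 CPM under the label WT (log2 fold change 0.12, SE 0.27, unadjusted p = 0.682). Ldhb, the heart-type subunit, had 339, 711 and 492 CPM under the label Ythdf3-/- and 464 and 302 CPM under the label WT. The subunits were close to level per kilobase, with Ldha at 56.8 ± 6.86% of the pair under the label Ythdf3-/- (SD, n = 3) and 60.0 ± 5.05% under the label WT (SD, n = 2). Ldhb led per kilobase in 1 library, replicate 2 labelled Ythdf3-/-, at 50.8%.

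**Figure D4:**
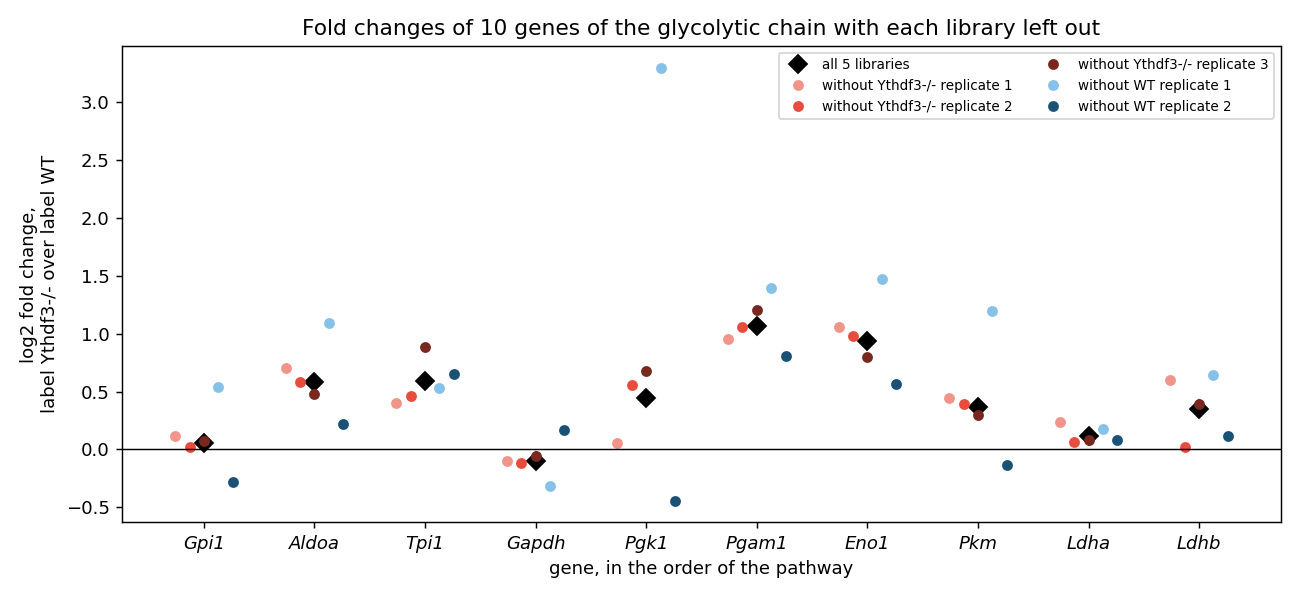
Log2 fold change between the labels (edgeR, Ythdf3-/- over WT) of 10 genes of the glycolytic chain on the vertical axis, in the order of the pathway, with all 5 libraries (black) and with each library left out in turn (coloured). Eno1, Pgam1, Aldoa, Tpi1, Ldha and Ldhb stay above 0 throughout, while Gpi1, Gapdh, Pgk1 and Pkm change sign without WT replicate 2. For Eno1, Pgam1 and Aldoa, whose libraries do not overlap in CPM, the kept sign follows largely from that.

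In the PDH complex, the labels lay further apart for the E1α gene Pdha1 than for its partner Pdhb. Pdhb, the E1β subunit that pairs with E1α, had 193, 161 and 197 CPM in the libraries labelled Ythdf3-/-, against 210.2 and 189 CPM in those labelled WT (log2 fold change -0.21, SE 0.42, unadjusted p = 0.627). With TMM-scaled CPM it lay lower without overlap, as Pdha1 did, at 189.7, 161 and 190.7 against 214.7 and 202.9 CPM. The same held with RLE and upper-quartile factors. The ratio of Pdha1 to Pdhb counts was 0.711, 0.470 and 0.424 under the label Ythdf3-/- and 0.855 and 1.20 under the label WT. All libraries labelled Ythdf3-/- lay below both labelled WT in this ratio, which was not tested. Pdha1 already lay apart in CPM and Pdhb was more even, so the ratio largely repeats that, as does the share that follows. Pdha1 made up 27.1%, 29.4% and 24.4% of the counts of the 4 subunit genes under the label Ythdf3-/-, against 38.9% and 44.4% under the label WT. Dlat, the E2 core subunit, was among the most uneven genes of the pathway, with 971, 10 and 127 counts under the label Ythdf3-/- and 838 and 805 counts under the label WT. Dld, the E3 subunit shared with other dehydrogenase complexes, had 23.8, 19.8 and 43.9 CPM under the label Ythdf3-/- and 21.1 and 4.68 CPM under the label WT.

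The PDKs, which phosphorylate E1α and switch the complex off, did not separate by label. Pdk2 had 221, 78.6 and 101 CPM in the libraries labelled Ythdf3-/-, against 138 and 40.9 CPM in those labelled WT (log2 fold change 0.51, SE 0.77, unadjusted p = 0.529). Pdk3 had 32.4, 127 and 174 CPM under the label Ythdf3-/- and 79.6 and 5.35 CPM under the label WT. Pdk1, a known HIF-1 target, had 93.7, 52.0 and 32.5 CPM under the label Ythdf3-/- and 63.7 and 85.3 CPM under the label WT. Per kilobase, Pdk2 led in 3 libraries, replicate 1 labelled Ythdf3-/- and both labelled WT, and Pdk3 in the other two. Hif1a itself had 66.2, 59.5 and 44.8 CPM under the label Ythdf3-/- and 51.7 and 20.6 CPM under the label WT (log2 fold change 0.58, SE 1.11, unadjusted p = 0.615). HIF-1α is regulated mainly through the stability of the protein, which was not measured.

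**Figure D5:**
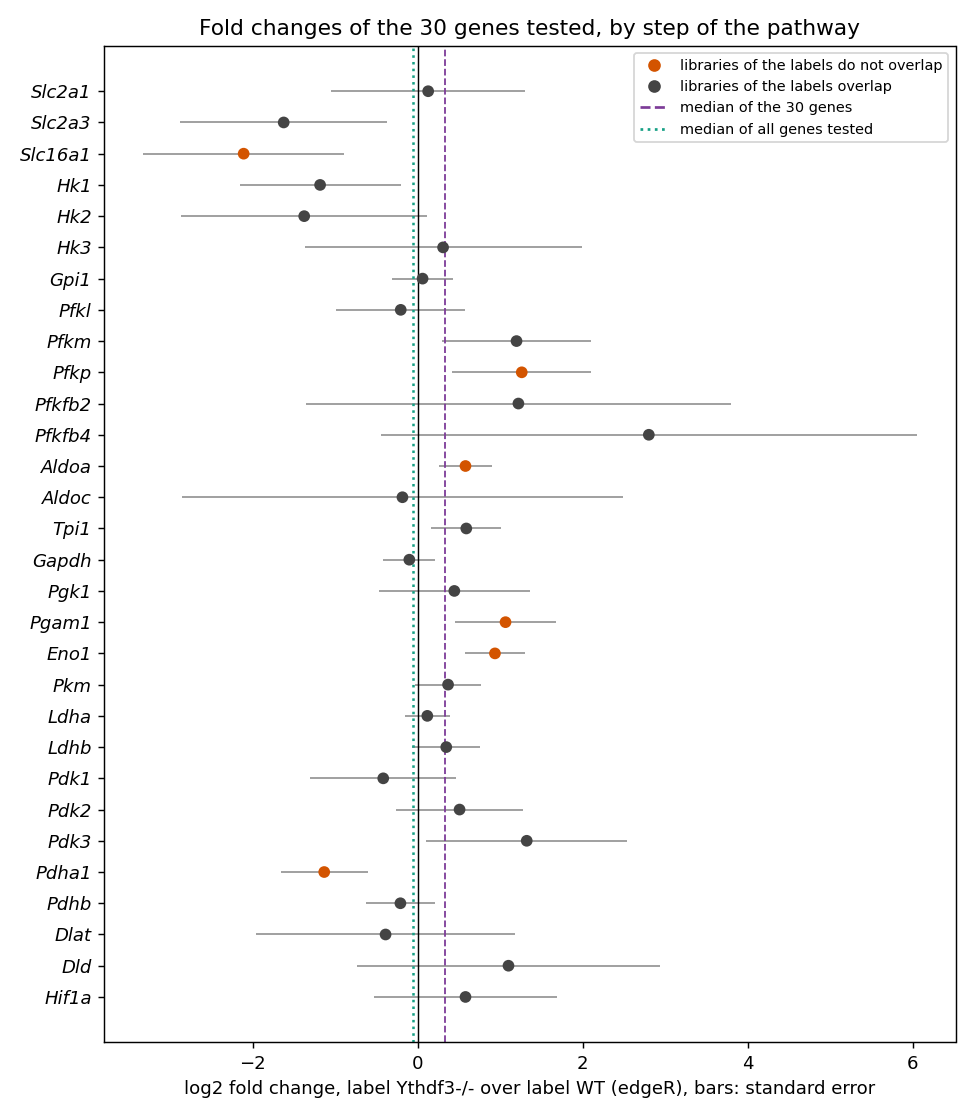
Log2 fold change between the labels (edgeR, Ythdf3-/- over WT) with its standard error for the 30 genes tested, in the order of the pathway from top to bottom, in orange where the libraries of the labels do not overlap. The dashed line is the median of the 30 genes, 0.33, the dotted line that of all genes tested, -0.06.

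Levels can be compared between genes only per kilobase of transcript. On that scale, as a mean over the 5 libraries, Aldoa led with 919 CPM per kilobase, before Ldha with 472, Eno1 with 429, Pkm with 371, Ldhb with 354, Gapdh with 343 and Tpi1 with 279. Aldoa exceeded Ldha within each of the 5 libraries, while from Ldha down to Tpi1 the ranges of neighbouring genes over libraries overlapped. Gpi1, Pdhb and Pgk1 followed at 145, 126 and 117 with overlapping ranges, and no other gene of the pathway exceeded 66.9. The genes of high level were also mostly the even ones. Among the 8 genes with a mean of at least 300 CPM the highest library was 1.31 to 3.67 times the lowest, with a median of 2.31, beside 2.11 for all 488 genes at that level. Among the 22 tested genes under 300 CPM, Pfkfb4 had 0 counts in WT replicate 1 and so no ratio, and the median ratio of the others was 11.5. Over all 10658 such genes it was 53.5, but there a gene with 0 counts in a library was placed above every ratio. The medians under 300 CPM are therefore not measured alike, and levels within that band were not matched. WT replicate 2 was the lowest library for 15 of the 30 tested genes, and for 6 of the 8 high ones, while it was the lowest for 21.4% of all genes tested. That 21.4% is a lower bound, since a tie, as at 0 counts, went to the first library in order and WT replicate 2 came last. No such share was computed for the 488 genes of at least 300 CPM alone. WT replicate 2 also held the largest summed level of mitosis genes and the smallest of B cell genes. Their part in the low values was not tested.

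Genes next to the pathway gave no call with edgeR either, as 0 genes of each list passed its adjusted test, like 0 of all 11146 genes. DESeq2 did call some of them, Myc, Bpgm, Gapdhs and Lipt1 among them. In the HIF list 9 of 11 regulators were tested, of which 3 lay higher and 1 lower under the label Ythdf3-/- without overlap, beside 9.74% and 11.0% of all genes tested. Myc, which drives many glycolytic genes, had 1028, 737 and 755 CPM in the libraries labelled Ythdf3-/-, against 344 and 238 CPM in those labelled WT. Its log2 fold change was 1.45 (SE 0.34, unadjusted p = 0.00273, adjusted p = 0.964 with edgeR, adjusted p = 0.0109 with DESeq2). Epas1, the gene of HIF-2α, had no count in any library. Among 15 other HIF targets 11 were tested, and without overlap 1 lay higher and 3 lower, beside the same 9.74% and 11.0% of all genes. Among the lower ones was Ndrg1 at 0.629, 8.70 and 23.7 CPM under the label Ythdf3-/- and 41.9 and 225 CPM under the label WT.

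The counts of genes without overlap in the lists that follow are to be read beside 9.74% of all genes tested that lay higher, 11.0% that lay lower and 20.7% in all. Of 24 further isozymes 8 were tested, 2 of them not overlapping and both higher under the label Ythdf3-/-. Bpgm makes 2,3-bisphosphoglycerate in red cells and had 502, 36.1 and 57.2 CPM in the libraries labelled Ythdf3-/-, against 1.26 and 2.23 CPM in those labelled WT (unadjusted p = 0.0022 with edgeR, adjusted p = 9.925e-07 with DESeq2). The highest of these values fell in the library with 37849 CPM of erythroid genes, and the part of such cells in it was not tested. The other isozyme without overlap, Gapdhs, had 89, 235 and 80 counts under the label Ythdf3-/- and 2 and 1 counts under the label WT (unadjusted p = 0.0465 with edgeR, adjusted p = 0.00467 with DESeq2). Of 14 genes of the pyruvate carrier and of PDH regulation 10 were tested, with 1 not overlapping in each direction. Lipt1, a lipoyltransferase that the PDH complex needs, had 245, 268 and 340 counts under the label Ythdf3-/- and 3 and 2 counts under the label WT (unadjusted p = 0.0152 with edgeR, adjusted p = 3.91e-06 with DESeq2). Gapdhs and Lipt1 passed the filter on low counts only through the libraries labelled Ythdf3-/-, as their WT counts lie at the floor. Their lack of overlap is tied to that filter, and their values are given as description only. In the pentose phosphate pathway, which branches off at glucose-6-phosphate, all 12 genes were tested, and without overlap 1 lay higher and 2 lower. Pgd, its second dehydrogenase, had 45.1, 27.4 and 36.9 CPM under the label Ythdf3-/- and 102 and 193 CPM under the label WT (unadjusted p = 0.0205). In the TCA cycle all 18 genes were tested, and without overlap 2 lay higher and 1 lower, again beside 9.74% and 11.0% of all genes. Among the higher ones was Idh2 at 277, 401 and 283 CPM under the label Ythdf3-/- and 175 and 101 CPM under the label WT (unadjusted p = 0.0345).

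Some counts may be shared with other genes. Exons of 13 of the 34 genes overlap those of another gene in GENCODE vM21 (mm10), mostly on the other strand, which unstranded reads cannot tell apart. In Pdha1 the overlap with Map3k15 covered 603 bases. For 12 genes a copy of at least 90% identity covered at least 30% of the transcript. Gapdh had 171 such copies, mostly pseudogenes, and the 10 with a row of their own held counts equal to at most 12.0% of its own. For Eno1 the near-identical Eno1b held 100, 151 and 129 counts under the label Ythdf3-/- and 112 and 27 under the label WT, at most 1.67% of the Eno1 counts. How the authors counted reads with several matches is not given in the sources used here. Counts lost to copies are therefore not known, and the levels of these 12 genes may be too low. That limit also holds for the order of genes per kilobase and for the ratios to Gapdh.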

How the data were processed

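RNA of 5 libraries of sorted HSCs was measured by Smart-seq2 with paired reads of 150 bases. The deposited table holds whole-number counts per gene, unnormalised. Per the submitters' processing notes the tools were HISAT2 2.2.1 and HTSeq 0.12.4 with genome mm10, and annotation, strand setting and treatment of reads with several matches were not stated in these sources. Groups follow the sample labels. Genes were filtered with filterByExpr, scaled by TMM and tested with edgeR 4.0.16 (robust quasi-likelihood, Benjamini-Hochberg at 0.05 over 11146 genes, R 4.3.3), after the script was tested on simulated data. DESeq2 1.42.0, limma voom 3.58.1, other scalings and filters, a replicate block and each library left out were alternatives. The common biological coefficient of variation was 1.26. CPM used the library totals, and 1 count was 0.0601 to 0.157 CPM. Values per kilobase used the principal transcript of GENCODE vM21. Copies were found with BLAST+ 2.17.0. Intervals and limits cover counting error only, since reads carry no molecule identifiers. That the samples came from separate mice is from the study's text.

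The genes and all lists were chosen with earlier results of these data known. Full statistics are given for every gene of the pathway whose labels do not overlap or whose unadjusted p is under 0.05, and for the gene of highest mean CPM in each step. Other lists name at most the 2 genes of smallest p, with Myc and Epas1. The replicate numbers of the labels were not used to pair libraries in the main fit. Deviations of libraries with the same number correlated at -0.004 and 0.009 over all genes tested. The deviations of the libraries labelled WT mirror each other, so these values cannot show whether libraries were paired.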

Additional observations from a re-analysis of the deposited data

How the results depend on the processing

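No gene of the pathway passed the threshold under any of the 14 alternatives. Over all genes the count was 594 with DESeq2, 21 with no filter on low counts, 0 to 1 with 1 library left out (1 without WT replicate 1), and 0 otherwise, and the cause was not tested. The median log2 fold change of the pathway's genes, 0.33, ranged over 0.27 to 0.41 under other tools, scalings and filters and under the replicate block (0.413), which called 0 genes, left 285 at an unadjusted p under 0.05 and turned Pfkl to 0.548. With 1 library left out it ranged from 0.083 (without replicate 1 labelled Ythdf3-/-) to 0.591 (without WT replicate 1), with 0.108 without WT replicate 2, and it was -0.001 without both WT replicate 2 and replicate 1 labelled Ythdf3-/-. The count of genes whose labels do not overlap was 6 or 7 under other scalings and 9 to 20 with 1 library left out, where fewer libraries make a gap likelier. Under those scalings 8.87 to 9.38% of all genes lay higher and 11.6 to 12.1% lower. At 20 (without WT replicate 1) it was 66.7% of the pathway and 52.6% of all genes. Without WT replicate 2 the shares were 46.7% and 47.4%. Without replicates 1, 2 and 3 labelled Ythdf3-/- in turn, they were 40% and 34.4%, 30% and 33.3%, and 33.3% and 33.3%. Signs turned with 1 library left out in 12 genes, whose log2 fold changes then ranged from -1.166 to 5.87 for Aldoc, -2.94 to 0.186 for Dlat, -0.318 to 0.164 for Gapdh, -0.283 to 0.537 for Gpi1, -2.18 to 0.549 for Hk2, -0.63 to 3.857 for Hk3, -0.089 to 1.574 for Pdk2, -0.224 to 3.891 for Pfkfb2, -0.975 to 1.584 for Pfkl, -0.442 to 3.298 for Pgk1, -0.137 to 1.199 for Pkm and -0.369 to 0.886 for Slc2a1. Without both named libraries the values were 0.115 for Gapdh, -0.281 for Gpi1, -0.048 for Hif1a, 0.046 for Hk2, -1.358 for Hk3, -0.677 for Pdk2, -0.867 for Pgk1 and -0.109 for Pkm. With 30 cells a library and 1 WT library left in some of these fits, the lone library is assumed to vary like the others.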
